A study of Mus musculus with 6 samples.

Results

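The genes described here are 10 components and targets of canonical Wnt signalling in the parietal bone, a plate of the skull vault, of newborn mice: the TCF/LEF transcription factors *Tcf7*, *Tcf7l1*, *Tcf7l2* and *Lef1*, their partner β-catenin (*Ctnnb1*), and the feedback genes *Axin2*, *Nkd1*, *Nkd2*, *Notum* and *Lgr6*. They were chosen by name from 44556 genes listed in the count tables, and all 10 passed the filter on low counts that left 15600 genes for testing. RNA-seq had been carried out to ask what loss of *Stat3* in osteoblast lineage cells does to gene expression in bone, with 3 libraries from OsxCre newborns and 3 from OsxCre;Stat3fl/fl littermates, all of the C57BL/6 strain. All 6 libraries carry OsxCre, a Cre recombinase driven by the promoter of *Osx* (*Sp7*) and expressed mainly in osteoblast precursors. The libraries labelled OsxCre;Stat3fl/fl also carry loxP sites around some exons of both *Stat3* alleles, which Cre removes only where it is expressed, so other cells of the bone piece keep *Stat3*. The OsxCre libraries are called WT in their titles, and their genotype entry names OsxCre alone.

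In canonical Wnt signalling, β-catenin is bound and marked for destruction by a complex of Axin, Apc, Gsk3 and casein kinase until a Wnt ligand engages its receptors. Stabilised β-catenin then enters the nucleus, where it binds TCF/LEF factors on DNA and turns their targets from repressed to active. Several targets feed back on the pathway, and *Axin2* is widely used as a readout of its activity. In bone, the pathway favours the osteoblast fate of skeletal progenitors, and *Axin2* also marks progenitor cells of the cranial sutures.

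Counts on genes summed to between 8193651 and 12080044 per library, and each library labelled OsxCre;Stat3fl/fl held fewer than each OsxCre library. Levels are given as CPM, counts per 1000000 counts of a library, scaled by the trimmed mean of M values (TMM). The 10 genes had between 43 and 1339 counts in a library. The lowest level that 3 counts stand for was between 0.251 and 0.367 CPM, which covers counting error only. *Stat3* had 149, 134 and 141 CPM in OsxCre libraries 1, 2 and 3 and 152, 154 and 155 CPM in libraries 1, 2 and 3 labelled OsxCre;Stat3fl/fl (log2 fold change 0.12, SE 0.07, adjusted p = 0.442, edgeR quasi-likelihood test). Counts over the whole gene include exons outside the loxP sites and do not check the deletion, so each genotype is as labelled. The study describes these newborns as male. *Xist*, a long noncoding RNA of the silenced X chromosome in female cells, was counted at 878 to 1060 CPM in all 6 libraries.

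No member of the group passed the adjusted threshold. In edgeR's quasi-likelihood test, 0 of the 10 genes had an adjusted p under 0.05, where 196 of 15600 genes tested had one, or 1.26%. DESeq2, with 539 of all genes tested called, and limma-voom, with 180, also called 0 of the 10. At an unadjusted p under 0.05, 1 member was lower in the libraries labelled OsxCre;Stat3fl/fl, which was *Tcf7l2*, and 0 were higher. The same held for 8.34% of all genes tested on the lower side and 8.03% on the higher side. The 3 libraries of one genotype lay wholly below those of the other for *Tcf7l2* alone, where 12.2% of all genes tested were apart on the lower side and 10.8% on the higher side. The other 9 members overlapped between genotypes. In the fitted log2 fold changes, 6 members were lower and 4 higher, with a median of -0.03 against -0.004 over all genes tested, and 8 of the 10 lay within 0.20 of 0.

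**Figure D1:**
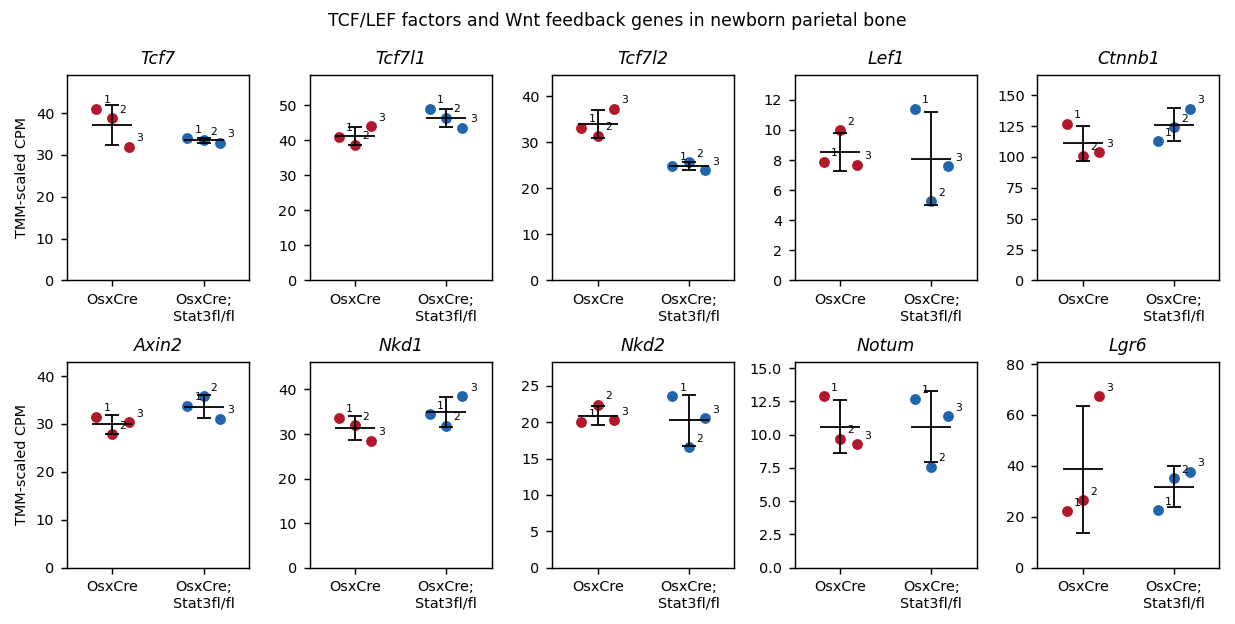
Level of each gene in every library, in TMM-scaled CPM with an axis from 0. Points are single libraries with their replicate numbers, and lines and bars are the mean and SD of 3 libraries. The *Tcf7l2* points of the libraries labelled OsxCre;Stat3fl/fl sit at 23.9 to 25.7 CPM, all under the OsxCre points at 31.5 to 37.3 CPM, and *Lgr6* in OsxCre library 3 stands at 67.4 CPM.

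*Tcf7l2*, which encodes TCF4, a TCF factor that can repress or activate Wnt targets depending on bound β-catenin, was the member with the clearest difference. It had 33.2, 31.5 and 37.3 CPM in OsxCre libraries 1, 2 and 3 and 24.9, 25.7 and 23.9 CPM in libraries 1, 2 and 3 labelled OsxCre;Stat3fl/fl. All 3 libraries labelled OsxCre;Stat3fl/fl were therefore lower than all OsxCre libraries, with 34.0 ± 2.98 CPM (SD, n = 3) in OsxCre and 24.8 ± 0.884 CPM (SD, n = 3) in those labelled OsxCre;Stat3fl/fl. The log2 fold change was -0.46 (SE 0.10, 95% interval -0.68 to -0.23), a ratio of 0.729 with an interval of 0.623 to 0.854. The unadjusted p was 0.00181, the 349th smallest of the 15600 genes tested, and the adjusted p was 0.0807. Across 13 other settings, each with a call of 0 members, its adjusted p ranged from 0.0512 to 0.236 and its log2 fold change from -0.51 to -0.38. *Tcf7l2* is among the genes in the study's own heatmap of these libraries, so its direction here is not independent evidence. In RNA from a whole bone piece, fewer cells that express a gene and less of its RNA per cell cannot be told apart.

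The other TCF/LEF genes did not pass either threshold. *Tcf7*, which encodes TCF1, had 41, 38.7 and 31.9 CPM in the OsxCre libraries and 34.0, 33.5 and 32.9 CPM in those labelled OsxCre;Stat3fl/fl. OsxCre library 3 lay below every library labelled OsxCre;Stat3fl/fl, while the other two OsxCre libraries lay above them, so the genotypes overlapped (log2 fold change -0.15, SE 0.11, adjusted p = 0.546). *Tcf7* overlaps another annotated gene, *Skp1*, listed as *Skp1a* with 10962 counts over the 6 libraries against 2044 for *Tcf7*, and whether counting used strand is not given in the sources used here.

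*Tcf7l1*, which encodes TCF3, a family member that acts mainly as a repressor, had 41, 38.8 and 44.0 CPM in the OsxCre libraries and 49.0, 46.5 and 43.6 CPM in those labelled OsxCre;Stat3fl/fl. Only library 3 labelled OsxCre;Stat3fl/fl fell within the OsxCre range, just under OsxCre library 3. The log2 fold change was 0.17 (SE 0.09, 95% interval -0.03 to 0.37), with an adjusted p of 0.378.

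*Lef1*, which is induced by Wnt signalling in many tissues and acts mainly as an activator, had the fewest counts. Its level was 7.88, 9.99 and 7.70 CPM in the OsxCre libraries and 11.4, 5.26 and 7.58 CPM in those labelled OsxCre;Stat3fl/fl. Both the highest and the lowest of the 6 values belonged to libraries labelled OsxCre;Stat3fl/fl. The 95% interval of the log2 fold change of -0.08 ran from -0.73 to 0.57 (adjusted p = 0.931), so a change of 1.5-fold upward was just outside it and one of 1.5-fold downward was within it.

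**Figure D2:**
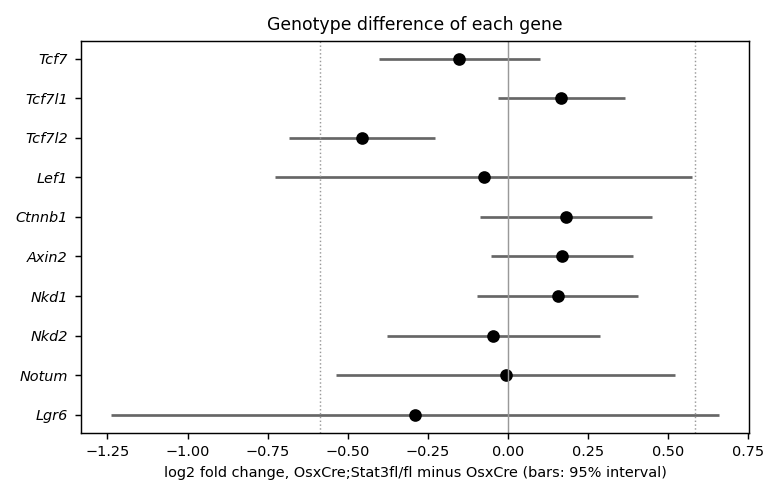
Log2 fold change of each gene, libraries labelled OsxCre;Stat3fl/fl minus OsxCre, with 95% intervals from the edgeR quasi-likelihood fit; dotted lines mark a 1.5-fold change either way. The interval of *Tcf7l2* runs from -0.68 to -0.23 and is the one that leaves out 0, while that of *Lgr6*, from -1.24 to 0.66, is the widest.

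The makeup of the TCF/LEF family was compared within each library, with each gene's CPM divided by transcript length in kb and expressed as a percentage of the sum over the 4 genes. *Tcf7l2* made up 19.5%, 19.2% and 22.9% of this sum in the OsxCre libraries and 15%, 16.6% and 15.9% in the libraries labelled OsxCre;Stat3fl/fl. The genotypes did not overlap, with a mean of 20.6% ± 2.05 (SD, n = 3) against 15.9% ± 0.794 (SD, n = 3). The two-sided exact permutation test gave p = 0.1, which is the smallest that 3 libraries against 3 can give (0.2 after Benjamini-Hochberg adjustment over the 4 genes). The share reuses the *Tcf7l2* levels given above, so it is not separate evidence of a difference.

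*Tcf7l1* differed in the other direction and without overlap. Its share was 34.0%, 33.4% and 38.2% in the OsxCre libraries and 41.8%, 42.5% and 40.9% in those labelled OsxCre;Stat3fl/fl (exact permutation p = 0.1, adjusted 0.2). Shares of one sum are tied to each other, so a lower share of one gene raises the summed share of the others. *Tcf7* made up 37.9% ± 4.19 against 36.1% ± 1.22 (SD, n = 3 each, exact permutation p = 0.5), and *Lef1* 6.35% ± 1.01 against 6.30% ± 2.14 (exact permutation p = 1). The summed level of the 4 genes was 38.6 ± 0.911 CPM per kb in OsxCre and 36.5 ± 1.83 CPM per kb in the libraries labelled OsxCre;Stat3fl/fl (SD, n = 3 each, exact permutation p = 0.3). Without a test, since it was picked after the values were seen, the ratio of *Tcf7l2* CPM to *Tcf7l1* CPM, not divided by length, was 0.810, 0.814 and 0.848 in OsxCre libraries and 0.509, 0.553 and 0.548 in those labelled OsxCre;Stat3fl/fl.

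**Figure D3:**
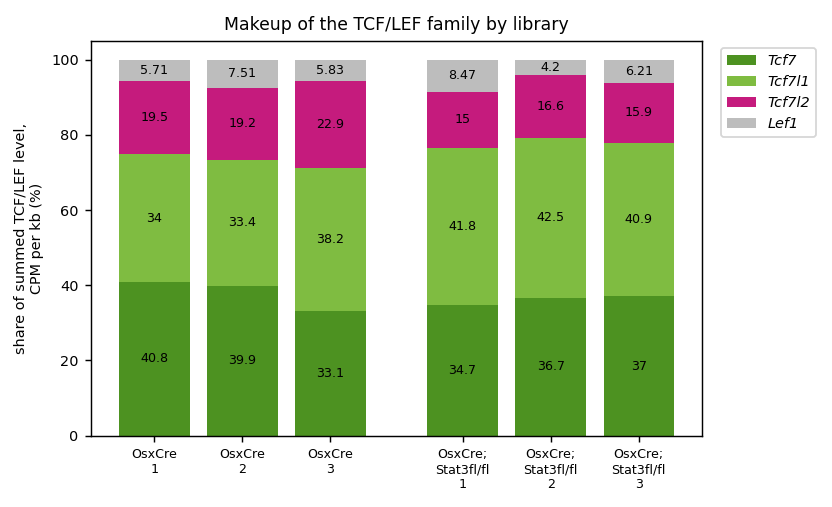
Share of each TCF/LEF gene in the summed level of the family, in percent of CPM per kb, one bar per library. The *Tcf7l2* segment covers 19.2% to 22.9% of the OsxCre bars and 15% to 16.6% of the bars labelled OsxCre;Stat3fl/fl, and the *Tcf7l1* segment covers 33.4% to 38.2% and 40.9% to 42.5%.

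*Ctnnb1* encodes β-catenin, the coactivator whose stability the pathway controls. Its level was 127, 101 and 104 CPM in OsxCre and 113, 124 and 139 CPM in libraries labelled OsxCre;Stat3fl/fl. OsxCre library 1 lay above 2 of the 3 libraries labelled OsxCre;Stat3fl/fl, so the genotypes overlapped (log2 fold change 0.18, SE 0.12, 95% interval -0.09 to 0.45, adjusted p = 0.486). Without OsxCre library 1 the log2 fold change was 0.30, with an unadjusted p of 0.0327 and an adjusted p of 0.338. RNA counts do not measure the stability or location of the protein.

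The feedback genes act at different levels of the pathway. *Axin2*, an Axin-family scaffold of the destruction complex, had 31.5, 27.8 and 30.3 CPM in the OsxCre libraries and 33.8, 35.8 and 31.1 CPM in those labelled OsxCre;Stat3fl/fl. Library 3 labelled OsxCre;Stat3fl/fl fell below OsxCre library 1, and the other two were above all OsxCre libraries. The ratio was 1.12 with a 95% interval of 0.963 to 1.31 (log2 fold change 0.17, SE 0.10, adjusted p = 0.435), so a reduction to under 0.963 of the OsxCre level lay outside the interval.

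*Nkd1* and *Nkd2* encode naked cuticle proteins, which bind Dishevelled and dampen the signal. *Nkd1* had 33.7, 32.0 and 28.5 CPM in OsxCre libraries and 34.4, 31.9 and 38.5 CPM in those labelled OsxCre;Stat3fl/fl (log2 fold change 0.16, SE 0.11, adjusted p = 0.530). *Nkd2* had 20, 22.4 and 20.3 CPM and 23.6, 16.6 and 20.6 CPM in the same order (log2 fold change -0.04, SE 0.14, adjusted p = 0.921). Both genes overlapped between genotypes, and for *Nkd2* the highest and the lowest value both came from libraries labelled OsxCre;Stat3fl/fl.

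*Notum*, a secreted enzyme that removes the lipid from Wnt ligands, had 12.9, 9.69 and 9.29 CPM in OsxCre libraries and 12.7, 7.58 and 11.4 CPM in those labelled OsxCre;Stat3fl/fl. Its means were the same at 10.6 CPM, with SDs of 1.98 and 2.66 (n = 3 each), and the log2 fold change was -0.01 (SE 0.23, 95% interval -0.54 to 0.52, adjusted p = 0.994).

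*Lgr6*, a receptor for R-spondins, which strengthen Wnt signalling, varied most between libraries. It had 22.2, 26.6 and 67.4 CPM in OsxCre libraries 1, 2 and 3 and 22.6, 35.1 and 37.7 CPM in libraries 1, 2 and 3 labelled OsxCre;Stat3fl/fl. OsxCre library 3 was 1.79 times the next highest library, and the highest value was 3.03 times the lowest. The log2 fold change was -0.29 (SE 0.41, adjusted p = 0.788) with all libraries and 0.38 (unadjusted p = 0.124, adjusted p = 0.471) without OsxCre library 3, so 1 library set its sign.

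Per kb of transcript, *Ctnnb1* was the most abundant of the 10 genes, with a mean over the 6 libraries of 32.6 CPM per kb and a range of 27.8 to 38.5 that met no other gene's range. *Tcf7l1* and *Tcf7* came next at 14.4 and 13.9 CPM per kb, and their ranges of 12.7 to 16.1 and 12.6 to 16.1 overlapped. They were followed by *Lgr6* at 9.72, *Nkd1* at 7.69, *Axin2* at 7.45 and *Tcf7l2* at 6.85 CPM per kb. Each of these 4 overlapped the next in order, and the range of *Lgr6*, from 6.12 to 18.6, also reached that of *Tcf7*. *Nkd2* at 5.13 and *Notum* at 4.79 CPM per kb also overlapped each other, and the range of *Nkd2*, up to 5.88, reached that of *Tcf7l2*, from 5.57. *Lef1* was lowest at 2.38 CPM per kb, and its highest value of 3.27 lay under the lowest value of every other gene. This order depends on the length used, here that of the longest coding transcript. For *Tcf7l2* that was 4295 bases, against 8739 in merged exons and 3012 in the median coding transcript. The order with other lengths was not tested.

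Promoter sequence was read from RefSeq windows of 250 bases before and 50 after an annotated start (GRCm38.p6). The tables gave 15 such windows for 9 of the 10 genes. TCF/LEF letters (CTTTGAT or CTTTGAA, both strands) were in 0 of the 15 windows and in 8.65% of 32851 windows of all genes. STAT letters (TTCNNNGAA) were also in 0 of the 15, against 8.30% of all windows. Such letters describe these windows only, and regulatory sites farther away were not searched. Most of the 15 windows were richer in G and C than the median of all windows, 52.7%, and the comparison was not adjusted for this. Some windows of *Ctnnb1* and of *Lef1* overlapped, so the 15 were not separate. The 250 bases before an annotated start are shown for *Axin2*, the usual readout of the pathway (chr11:108920099-108920348, plus strand), and *Tcf7l2*, the member with the smallest p (chr19:55741560-55741809, plus strand), 5′ to 3′, with CG pairs in capitals. The *Axin2* window lies inside the annotated gene (chr11:108917828-108950783), and the *Tcf7l2* window spans the first base of the annotated gene (chr19:55741797-55933659).
Axin2: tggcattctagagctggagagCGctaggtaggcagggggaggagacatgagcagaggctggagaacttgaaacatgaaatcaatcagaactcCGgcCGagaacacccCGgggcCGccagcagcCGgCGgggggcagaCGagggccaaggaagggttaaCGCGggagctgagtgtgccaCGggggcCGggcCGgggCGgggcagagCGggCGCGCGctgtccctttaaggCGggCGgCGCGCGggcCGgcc
Tcf7l2: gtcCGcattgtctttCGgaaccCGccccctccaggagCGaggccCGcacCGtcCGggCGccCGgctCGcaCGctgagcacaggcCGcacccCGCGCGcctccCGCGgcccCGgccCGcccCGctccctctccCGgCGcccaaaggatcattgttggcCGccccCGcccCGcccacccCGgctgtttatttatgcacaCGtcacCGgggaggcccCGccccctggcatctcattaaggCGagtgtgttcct
*Axin2* held 24 CG pairs and 69.2% G or C in these bases, and *Tcf7l2* held 30 and 72.8%. Over the full windows, *Axin2* held 31 CG pairs and *Tcf7l2* held 34, where the median of all windows was 7. A second *Tcf7l2* start, inside the gene, held 7 CG pairs. *Tcf7*, *Axin2* and *Notum* lie on chromosome 11, as does *Stat3*, at 48.6, 7.98 and 19.7 Mb from it.

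Other genes of the pathway were counted in 3 lists, beside the same edgeR background of 1.26%, 8.34% and 8.03%. No gene in them passed the adjusted threshold with edgeR's quasi-likelihood test or limma-voom. DESeq2 called 1 nuclear partner, *Ctbp1* (adjusted p = 0.0246), and 1 other Wnt-responsive gene, *Wif1* (adjusted p = 0.0285), both lower in the libraries labelled OsxCre;Stat3fl/fl. Its own background was larger than that of edgeR, at 539 of 15600 genes tested, 235 lower and 304 higher.

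The destruction complex and Dishevelled list had 19 of 20 genes tested, of which 6 were lower and 13 higher, with a median log2 fold change of 0.06. At an unadjusted p under 0.05, 1 was lower and 1 higher. *Dvl1*, a Dishevelled protein that relays the signal from the receptors, had 163, 173 and 166 CPM in OsxCre and 152, 138 and 131 CPM in libraries labelled OsxCre;Stat3fl/fl (log2 fold change -0.25, adjusted p = 0.171). *Tnks*, a tankyrase that promotes Axin breakdown, had 27.0, 24.8 and 23.1 CPM against 26.6, 31.8 and 34.3 CPM (log2 fold change 0.31, adjusted p = 0.266). The genotypes were apart for *Dvl1* and overlapped for *Tnks*. *Dvl2* had the next smallest p, with a log2 fold change of 0.19 (adjusted p = 0.333).

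Among nuclear partners of TCF/LEF factors and β-catenin, 22 of 23 genes were tested, 12 lower and 10 higher, with a median of -0.01. At the unadjusted threshold, 3 were lower and 2 higher. *Ctbp1*, a corepressor, had 184, 186 and 192 CPM in OsxCre libraries and 158, 150 and 146 CPM in those labelled OsxCre;Stat3fl/fl, without overlap (log2 fold change -0.31, SE 0.07, adjusted p = 0.0843). For the histone acetyltransferase *Ep300* the log2 fold change was 0.32 (adjusted p = 0.170). The Groucho corepressors *Tle1* and *Tle2* had values of 0.36 (adjusted p = 0.179) and -0.48 (adjusted p = 0.182). The chromatin remodeller *Smarca4* had a value of -0.22 (adjusted p = 0.212). *Tle2* and *Smarca4* were named after their values were seen, to complete the count.

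Of other Wnt-responsive genes, 14 of 15 were tested, 11 lower and 3 higher, with a median of -0.09. At the unadjusted threshold, 4 were lower, or 28.6% of those tested, and 0 were higher. These 4 include *Sp5*, which passed the filter on low counts only through the OsxCre libraries, where it was high. *Wif1*, a secreted Wnt inhibitor, had 74.7, 82.3 and 65.1 CPM in OsxCre libraries and 39.9, 37.3 and 62.9 CPM in those labelled OsxCre;Stat3fl/fl (log2 fold change -0.66, SE 0.20, adjusted p = 0.154). The genotypes did not overlap, although library 3 labelled OsxCre;Stat3fl/fl came close to OsxCre library 3. *Ccnd1*, a cyclin of the G1 phase, had 154, 157 and 171 CPM against 142, 125 and 107 CPM, also apart (log2 fold change -0.37, adjusted p = 0.161).

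*Sp5*, a transcription factor induced directly by β-catenin in many settings, had few counts, 14 in each OsxCre library and 6, 5 and 5 in those labelled OsxCre;Stat3fl/fl (log2 fold change -1.0, SE 0.33, adjusted p = 0.187). *Dkk1*, a secreted inhibitor of Wnt receptors named here after its values were seen, had 8.45, 6.23 and 7.78 CPM and 2.4, 2.81 and 6.41 CPM (log2 fold change -0.95, SE 0.37, adjusted p = 0.257). Library 3 labelled OsxCre;Stat3fl/fl lay within the OsxCre range of *Dkk1*. The list of 15 thus held 4 genes lower at the unadjusted threshold, with *Sp5* among them. Of the 5 feedback genes among the 10 members, 0 were lower at it. A difference between these sets was not tested.

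**Figure D4:**
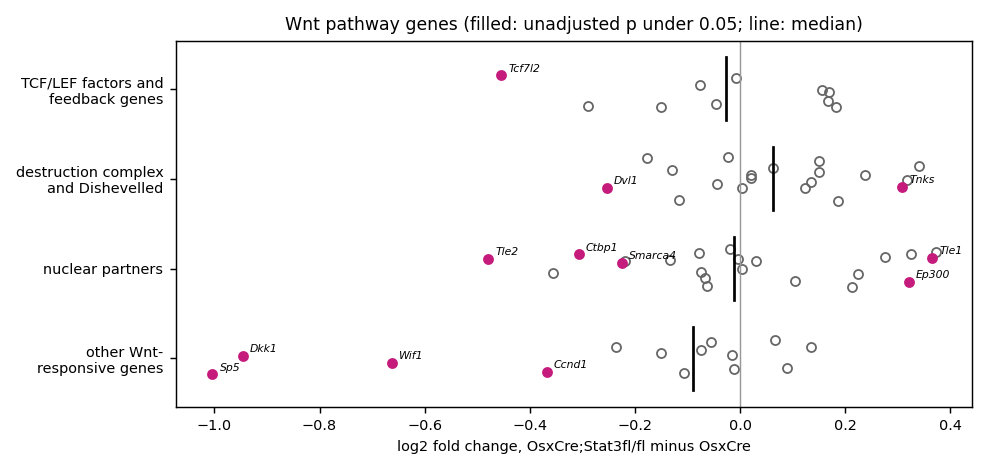
Log2 fold change of every tested gene of the 10 members and of the 3 Wnt lists, libraries labelled OsxCre;Stat3fl/fl minus OsxCre. Each point is a gene, filled where the unadjusted p was under 0.05, and the line is the median of the list (-0.03, 0.06, -0.01 and -0.09 from top to bottom). The lowest points are *Sp5* and *Dkk1* at -1.0 and -0.95, and *Sp5* passed the filter on low counts only through the OsxCre libraries.

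Cells other than osteoblasts contributed RNA to all libraries, and summed marker levels of 13 lists were compared by library. *Col1a1* led the osteoblast list at a mean of 12400 CPM over the 6 libraries, and 0 of its 9 markers were at 0. Besides the leading genes and those listed at 0, the markers named here were chosen after their values were seen. Osteoblast markers summed to 14300 to 19300 CPM in OsxCre and 13300 to 16900 CPM in libraries labelled OsxCre;Stat3fl/fl, with 7 of 9 lower, 1 of them (*Ibsp*) at an adjusted p of 0.0213. *Col1a1* supplied most of this sum, so its overlap says little about the other markers. *Alpl* was also lower without overlap, from a mean of 282 to 193 CPM (log2 fold change -0.54, adjusted p = 0.0578, edgeR), while 2 markers were higher. *Ibsp* is also among the genes the study picked from these libraries. Suture mesenchyme markers summed to 1480 to 1630 against 1450 to 1640 CPM, with 3 of 6 lower and 3 higher. *Ctsk*, which osteoclasts also express, supplied most of this sum at a mean of 1000 CPM. Within the list, *Gli1* was higher and *Twist1* lower without overlap, by 0.39 on the log2 scale (adjusted p = 0.127) and by -0.25 (adjusted p = 0.245).

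The summed markers of 3 lists did not overlap between the genotypes. Of single genes tested, 12.2% were apart on the lower side and 10.8% on the higher side. The skeletal muscle sum, led by *Acta1*, was higher in libraries labelled OsxCre;Stat3fl/fl, at 34300 to 51000 against 29200 to 31600 CPM, with 8 of 10 markers higher. The muscle list did not move one way. The myosin gene *Myh3* rose (log2 fold change 1.72, adjusted p = 0.0204), while the myosin gene *Myh4* fell from 435 ± 36.2 to 35.6 ± 4.46 CPM (SD, n = 3 each, log2 fold change -3.61, adjusted p = 3.87e-05), and *Ryr1* was lower without overlap (log2 fold change -0.51, adjusted p = 0.212). The macrophage sum was higher, at 487 to 506 against 428 to 450 CPM, with 4 of 6 markers higher. *C1qb* rose from 103 ± 5 to 146 ± 6.64 CPM (SD, n = 3 each, adjusted p = 0.0253), whereas for the leading gene *Lyz2* the log2 fold change was -0.10 (adjusted p = 0.609). The erythroid sum, led by *Hba-a1*, was lower, at 1170 to 2080 against 2230 to 3770 CPM, with all 4 tested markers lower, 0 of them at the adjusted threshold, and *Hbb-b1* listed at 0 in every library. Because the annotation used for counting is not given, a gene listed at 0 is not shown to be absent. The part of osteoblasts and of muscle, macrophage and erythroid cells in the *Tcf7l2* difference was not tested.

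Summed levels overlapped for the remaining lists, and in edgeR's test 0 of their genes passed the adjusted threshold, with 2 endothelial markers and 1 cartilage marker past the unadjusted threshold. Endothelial markers, led by *Pecam1*, summed to 527 to 746 against 661 to 777 CPM, with all 6 higher. Of these, *Tek* and *Tie1* did not overlap, and were higher by 0.29 on the log2 scale (adjusted p = 0.227) and by 0.33 (adjusted p = 0.297). Cartilage markers, led by *Col2a1*, summed to 1830 to 3130 against 2770 to 3530 CPM, with 5 of 6 higher. Osteoclast markers, led by *Mmp9*, summed to 1320 to 1560 against 1080 to 1570 CPM, with 3 lower and 3 higher. B-lymphoid markers, led by *Ebf1*, summed to 18.1 to 24.3 against 19.3 to 25.1 CPM, with 3 lower and 3 higher of 6 tested. T-lymphoid markers, led by *Cd4* and with *Cd8a* at 0, summed to 4.94 to 6.62 against 5.75 to 7.82 CPM. *Tcf7* and *Lef1* are also T-cell factors, and of the 6 T-lymphoid markers 2 passed the filter on low counts, both higher. The untested markers *Cd3d*, *Cd3e* and *Cd3g* had 0 to 3 counts in a library. Their mean CPM was lower for *Cd3d* and *Cd3e* and higher for *Cd3g* in the libraries labelled OsxCre;Stat3fl/fl. Epidermis and hair follicle markers, led by *Krt10* and with *Dsg1a* at 0, summed to 4.10 to 6.83 against 4.65 to 11.7 CPM, and the 1 tested was lower.

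Among these lists, 2 varied widely within a genotype. Neuronal and glial markers, led by *Stmn2*, summed to 263, 414 and 142 CPM in OsxCre and 374, 53.9 and 266 CPM in libraries labelled OsxCre;Stat3fl/fl. Library 2 labelled OsxCre;Stat3fl/fl was lowest in this sum and in *Lef1*, *Nkd2* and *Notum*. Library 1 labelled OsxCre;Stat3fl/fl and OsxCre library 2, highest in the sum, were also the 2 highest in *Lef1* and in *Nkd2*, whereas *Notum* was highest in OsxCre library 1. Adipocyte markers, led by *Fabp4*, summed to 1030, 1160 and 2900 CPM in OsxCre and 1270, 2470 and 1990 CPM in those labelled OsxCre;Stat3fl/fl, and OsxCre library 3 was highest in this sum and in *Lgr6*. These pairings were picked after the values were seen, and the part of such cells in the levels was not tested.

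**Figure D5:**
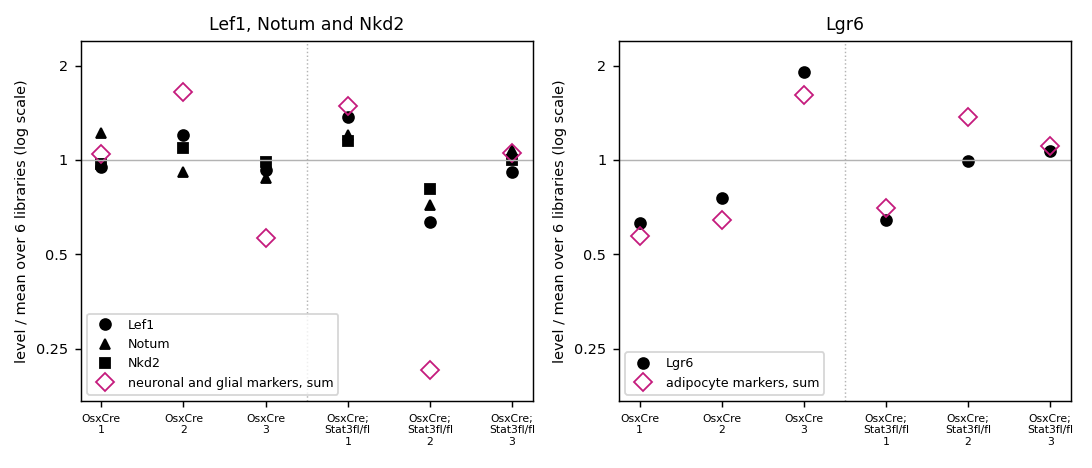
Level of *Lef1*, *Notum*, *Nkd2* (left) and *Lgr6* (right) in each library, beside the summed neuronal and glial or adipocyte markers, each divided by its mean over 6 libraries on a log axis. Library 2 labelled OsxCre;Stat3fl/fl is lowest for the 4 series on the left, and OsxCre library 3 is highest for the 2 series on the right.

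The genes whose pattern over the 6 libraries was nearest to that of *Axin2*, by the root mean square difference of centred log2 CPM, were *Creb3* at 0.0268, *Gpc3* at 0.0291, *Sgce* at 0.0364, *Vamp8* at 0.0366 and *Cep85* at 0.0368. The median over all genes tested was 0.212. Nearest to *Tcf7l2* were *Grap* at 0.0361, *Cytip* at 0.0405, *Naa30* at 0.0466, *Marcks* at 0.0534 and *Acaa1a* at 0.0535, with a median of 0.288. With 15600 genes and 6 libraries, some genes are near any pattern, and the distances are given as a description.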

How the data were processed

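RNA was extracted from the parietal bone of 3 OsxCre and 3 OsxCre;Stat3fl/fl newborns, and libraries were made with a TruSeq kit from polyA RNA per the labels. The authors deposited whole-number counts per gene symbol for each library, without normalization. The submitters' processing notes name HISAT2 and GRCm38, whereas the study's methods describe TopHat, mm9 and Cufflinks. The counting program and annotation are not given in the sources used here. The methods describe littermates, 3 per genotype; p-values measure the spread between these libraries, and no pair of libraries within a genotype was a duplicate by a chi-square comparison of their counts.

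Low genes were left out by filterByExpr (at least 10 counts in enough libraries, 15 in all), and libraries were scaled by TMM and tested in edgeR 4.0.16 (glmQLFit, glmQLFTest, R 4.3.3), two-sided, with Benjamini-Hochberg adjustment over 15600 genes. The common biological coefficient of variation was 16.7%. The SE was the size of the log2 fold change over the square root of F. Shares were compared by exact permutation tests (scipy 1.17.1). Lengths for shares and for CPM per kb were those of each gene's longest coding transcript in the GENCODE annotation of mm9. Likeness used log2(CPM + 0.5). Fits were tested on simulated counts. Alternatives were DESeq2 1.42.0, limma-voom 3.58.1, other scalings and filters, the replicate number as a block, and leaving out each library. For the share of *Tcf7l2*, merged exons and the median coding transcript were used as lengths after the data were seen.

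The members and gene lists were chosen with earlier results of these data known. Genes named were the 10 members, *Stat3*, *Xist*, the 3 smallest p-values per Wnt list, the leading and undetected marker genes, and the 5 genes nearest to *Axin2* and to *Tcf7l2*. *Adgre1* and *Epb42* were matched as *Emr1* and *Epb4.2*.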

Additional observations from a re-analysis of the deposited data

How the results depend on the processing

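Under all 13 alternatives (7 other fits and 6 that left out 1 library), 0 of the 10 members passed the adjusted threshold. *Tcf7l2* kept its direction and an unadjusted p of at most 0.00805 throughout. Among all genes tested, 196 passed the adjusted threshold, against 428 without the filter, 539 with DESeq2, 1 with a replicate block, and 12 to 103 without 1 library. These were 75 lower and 121 higher with TMM, and 114 lower and 111 higher with library totals.

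In the destruction complex list, library totals gave 2 lower and 0 higher genes at the unadjusted threshold, DESeq2 and the replicate block each gave 0 higher, and leaving out 1 library gave 0 to 3 higher. Among nuclear partners, library totals gave 1 higher gene, DESeq2 called 1 at the adjusted threshold, and leaving out 1 library gave 1 to 4 lower. Among other Wnt-responsive genes, 1 (*Wif1*) passed the adjusted threshold without the filter and 1 with DESeq2, and leaving out 1 library gave 0 to 1 higher. Leaving out 1 library gave 1 to 2 members lower and 0 to 1 higher at the unadjusted threshold. The second lower member was *Tcf7*, without OsxCre library 3 (unadjusted p = 0.0309), and the higher one was *Ctnnb1*. The median of the members then ranged from -0.127 to 0.144.

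The sign of 4 uncalled members turned without 1 library, with ranges of -0.41 to 0.16 for *Lef1*, -0.166 to 0.087 for *Nkd2*, -0.16 to 0.19 for *Notum* and -0.56 to 0.38 for *Lgr6*. The difference in the share of *Tcf7l2*, -4.70 percentage points, was -6.06 without division by length, ranged from -5.31 to -3.17 with other lengths and from -5.36 to -3.53 without 1 library. Same-numbered libraries of the genotypes were not alike, with correlations of deviations across genes of -0.101, -0.518 and -0.085. Differently numbered pairs ranged from -0.445 to 0.508. The highest were OsxCre library 2 with library 1 labelled OsxCre;Stat3fl/fl, at 0.508, and OsxCre library 3 with library 2 so labelled, at 0.421. In the fit with the replicate block, *Tcf7l2* had a log2 fold change of -0.45 and an adjusted p of 0.233, and no member was called. The causes of these shifts were not tested. With 3 libraries per genotype, a missed threshold does not show that levels were equal, and at 43 to 101 counts *Lef1* had the widest counting error.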
